A study of Bos taurus with 6 samples.

Results

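The miR-15/16 family is a group of miRNAs that share a seed, the bases near the 5′ end through which a miRNA pairs with its targets. It was followed in serum extracellular vesicles (EVs), membrane-bound particles shed by cells into the blood. The rule named 6 members, bta-miR-15a, bta-miR-15b, bta-miR-16a, bta-miR-16b, bta-miR-195 and bta-miR-497, and 5 of them were measured, out of 359 known and 706 listed miRNAs. For bta-miR-497 there is no value, and it was not analysed here. The 6 cows were lactating Holstein females in mid lactation, kept in climate chambers. The control group (3 cows) received the standard TMR, a mixed ration. In the diet of the tested group (3 cows), less alfalfa hay was used and whole cotton seed and soybean hull were included. After 30 days the small RNAs of the serum EVs of each cow were sequenced as 1 library, so the replicates are separate animals. The question was whether the diet changed the level of these EV-miRNAs.

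The miR-15/16 family is best known as a brake on cell division and survival. Its members repress cyclins, other regulators of the cell cycle and the survival protein BCL2. The miR-15a and miR-16 genes were among the first miRNA genes linked to leukaemia, where they are often deleted, and miR-195 and miR-497 are known for their part in the exit of heart muscle cells from the cell cycle. In blood, miR-16 is abundant in red blood cells and has often been used as a reference miRNA in serum.

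The listed sequences of the 5 measured members are shown 5′ to 3′ with the seed (bases 2 to 8) in capitals, because the seed is what makes them a family and the 3′ end is what tells them apart. They are written with T for U, as deposited.
bta-miR-15a: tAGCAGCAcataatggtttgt
bta-miR-15b: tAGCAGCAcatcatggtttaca
bta-miR-16a: tAGCAGCAcgtaaatattggtg
bta-miR-16b: tAGCAGCAcgtaaatattggc
bta-miR-195: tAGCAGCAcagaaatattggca

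All 5 have the seed AGCAGCA, and no other listed miRNA has it, known or newly predicted. The sequences are 21 or 22 nt long. The first 20 bases of bta-miR-16a and bta-miR-16b are identical and only the 3′ end differs, so a read that has lost or gained bases at that end cannot be assigned to one of them with certainty. The counts of these 2 miRNAs are therefore uncertain individually. By contrast, bta-miR-15a and bta-miR-15b differ by 4 edits, and bta-miR-195 lies 3 edits from bta-miR-16b and 4 from bta-miR-16a. No other row of the table came within 3 edits of any member.

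The members belong to 3 pairs of neighbouring genes. In the RefSeq gene table of assembly ARS-UCD2.0, used for names and neighbours only because it is not the assembly of the study, MIR15B and MIR16B lie within 10 kb of each other inside SMC4, which encodes a subunit of condensin. MIR15A and MIR16A are neighbours inside a transcribed pseudogene, and MIR195 and MIR497 are neighbours inside a long non-coding RNA gene. No further miRNA gene lies within 10 kb of any of the 6.

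Levels are given in ppm, the counts of a miRNA per 1000000 counts on known miRNAs of the same library. The known miRNA counts numbered between 1226928 and 2088249 per library, with the lowest total in tested cow 1, so 1 count corresponded to between 0.479 and 0.815 ppm. Intervals are 95% exact (Clopper-Pearson) and reflect counting error and nothing else. They treat each count as a separate molecule, so they are too narrow where counts are PCR copies of the same molecule. In EVs, fewer vesicles with a miRNA and fewer copies per vesicle cannot be told apart.

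The family was a minor part of the EV-miRNAs. All members together had 2150 counts over the 6 libraries, of which bta-miR-16a made up 48.5%, bta-miR-16b 30.5%, bta-miR-15b 19.3%, bta-miR-195 1.53% and bta-miR-15a 0.140%. By mean level among the 359 known miRNAs, bta-miR-16a was at rank 110, bta-miR-16b at rank 122 and bta-miR-15b at rank 139, while bta-miR-195 and bta-miR-15a were at ranks 231 and 326. The summed level was 292.1, 185.2 and 192.4 ppm in control cows, against 141.8, 201.7 and 188.2 ppm in tested cows. Control cow 1 had the highest sum and tested cow 1 the lowest, and the groups overlapped. Group means were 223.2 ± 59.7 (SD, n = 3) and 177.2 ± 31.4 (SD, n = 3) ppm, a difference of -46.0 ppm, less than the SD of the control group. On the log2 scale the ratio of these means was -0.33, and -0.091 without control cow 1.

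The most abundant member, bta-miR-16a, was counted 201, 125 and 216 times in control cows 1 to 3, against 48, 200 and 252 times in tested cows 1 to 3, the order used throughout. This is 130.8, 62.2 and 108.5 ppm in the control group against 39.1, 106.4 and 120.7 ppm in the tested group. Tested cow 1 was the lowest of all cows, and the other tested cows lay within the range of the control group. In tested cow 1 the interval was 28.8 to 51.9 ppm, which just meets that of control cow 2, the next lowest, at 51.8 to 74.1 ppm. The group means of 100.5 ± 35.0 (SD, n = 3) and 88.7 ± 43.6 (SD, n = 3) ppm overlapped in their SDs (two-sided exact permutation test, p = 0.6, and with 3 cows a group p cannot go below 0.1).

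For bta-miR-16b, which differs from it only at the 3′ end, control cows gave 136, 144 and 95 counts and tested cows 88, 153 and 40. The levels were 88.5, 71.7 and 47.7 ppm in the control group and 71.7, 81.4 and 19.2 ppm in the tested group. Here tested cow 3 was the lowest, with an interval of 13.7 to 26.1 ppm, while tested cow 1 was within the range of the control cows. The control mean was 69.3 ± 20.5 (SD, n = 3) and the tested mean 57.4 ± 33.5 (SD, n = 3) ppm (exact permutation test, p = 0.7). The cow that was low in bta-miR-16a was thus not the one that was low in bta-miR-16b.

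Because reads of these 2 miRNAs cannot always be told apart, their counts were also added. The sum was 337, 269 and 311 counts in the control group against 136, 353 and 292 in the tested group. In ppm it was 219.2, 133.9 and 156.3 against 110.8, 187.8 and 139.8, and again the groups overlapped. The highest and lowest cow differed by 1.98-fold in the sum, against 3.34-fold for bta-miR-16a and 4.62-fold for bta-miR-16b. Whether reads were assigned to the wrong row was not tested. The means of the sum were 169.8 ± 44.2 (SD, n = 3) and 146.2 ± 38.9 (SD, n = 3) ppm (exact permutation test, p = 0.6).

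The third abundant member was bta-miR-15b, with 111, 101 and 72 counts in control cows against 7, 24 and 101 in tested cows. In levels this is 72.2, 50.3 and 36.2 ppm in the control group and 5.71, 12.8 and 48.4 ppm in the tested group. Tested cows 1 and 2 lay below every control cow and tested cow 3 within the control range, so the groups overlapped in ppm. The interval in tested cow 2 was 8.18 to 19.0 ppm and that in control cow 3, the lowest control, 28.3 to 45.6. The control mean was 52.9 ± 18.2 (SD, n = 3) and the tested mean 22.3 ± 22.9 (SD, n = 3) ppm, the widest relative gap of the 3 abundant members, but tested cow 3 lay among the control cows (exact permutation test, p = 0.2). The overlap depended on the scaling. In the authors' RPM values, scaled to clean reads, bta-miR-15b was at 6.52 to 7.90 in the control group and at 0.485 to 4.18 in the tested group, so that every tested cow lay below every control cow, with a log2 ratio of the means of -1.74 (exact permutation test, p = 0.1, the smallest that can be reached). This scaling also lowered the tested group as a whole, since the median log2 ratio of the 312 known miRNAs tested across the table was -0.40 in RPM and 0.059 in ppm.

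The last 2 measured members were rare. For bta-miR-195, control cows gave 1, 1 and 0 counts and tested cows 29, 2 and 0, so that 29 of its 33 counts came from tested cow 1, where it reached 23.6 ppm with an interval of 15.8 to 33.9. Over the groups the ratio of tested to control was 16.5, with a counting interval of 4.20 to 142.5, and without tested cow 1 it was 1.40, with an interval of 0.101 to 19.3. The groups overlapped, and the means of 0.383 ± 0.340 (SD, n = 3) and 8.23 ± 13.3 (SD, n = 3) ppm did not differ beyond the spread (exact permutation test, p = 0.5). It entered the test across all miRNAs only through tested cow 1.

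For bta-miR-15a there was 1 count in control cow 2 and there were 2 counts in tested cow 1, with 0 in the other 4 cows. A count of 0 allows up to 3 counts, between 1.44 and 1.95 ppm in these 4 libraries, a one-sided limit that is lower than the upper ends of the two-sided exact intervals, 1.77 to 2.40 ppm. The ratio of tested to control was 2.13, with a counting interval of 0.111 to 125.8, and a difference between the diets was not detectable at this depth. Its gene is the neighbour of MIR16A, yet bta-miR-16a had 1042 counts over the 6 libraries against 3 for bta-miR-15a.

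**Figure D1:**
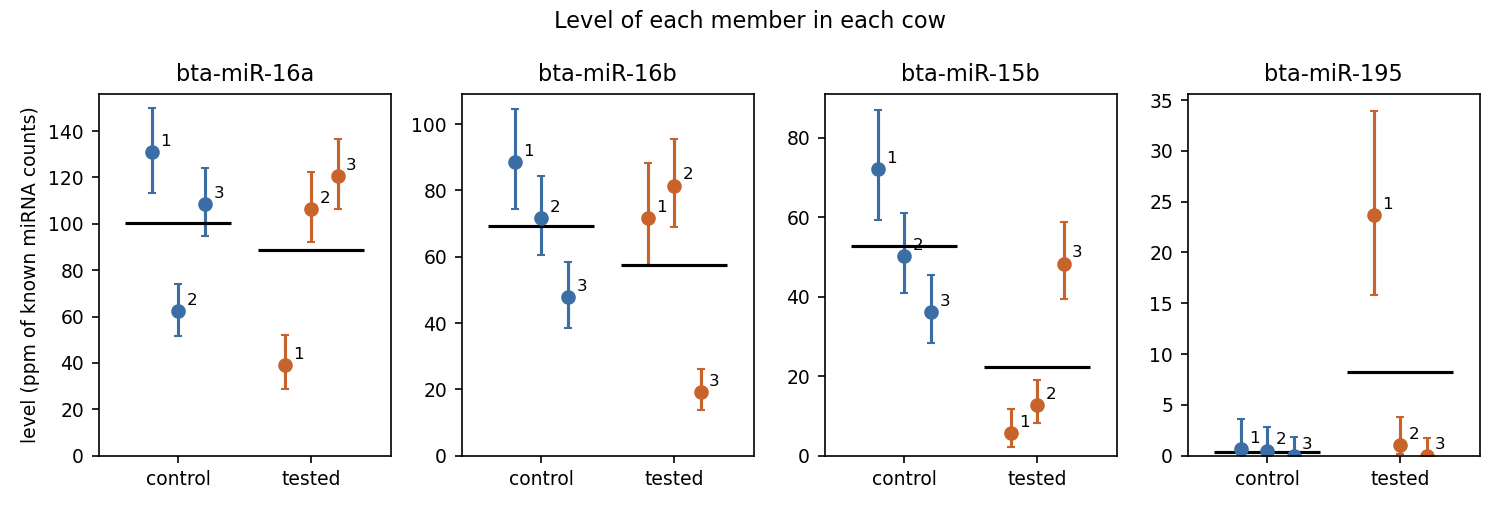
Level of bta-miR-16a, bta-miR-16b, bta-miR-15b and bta-miR-195 in each cow, in ppm of the known miRNA counts on a linear axis that starts at 0 and differs between panels. Points are cows, numbered by replicate, bars on the points are 95% exact counting intervals and horizontal lines are group means. The groups overlap in all 4 panels, and bta-miR-195 stands at 23.6 ppm in tested cow 1 against at most 1.06 in the other cows.

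How the family was made up differed from cow to cow. In the control group, bta-miR-15b held 24.7%, 27.2% and 18.8% of the family counts, and in the tested group 4.02%, 6.33% and 25.7%. Tested cow 3 resembled the control cows in this share, and the other tested cows were lower. The control mean was 23.6% ± 4.30 (SD, n = 3) and the tested mean 12.0% ± 11.9 (SD, n = 3) (exact permutation test, p = 0.3).

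Between cows, bta-miR-16a ranged from 27.6% in tested cow 1 to 64.1% in tested cow 3, of the family counts, and bta-miR-16b from 10.2% in tested cow 3 to 50.6% in tested cow 1. Both extremes of both miRNAs thus fell in the tested group, and the control cows lay between them. The group means of bta-miR-16a were 44.9% ± 11.4 (SD, n = 3) and 48.2% ± 18.7 (SD, n = 3) (exact permutation test, p = 0.8), and those of bta-miR-16b were 31.3% ± 7.00 (SD, n = 3) and 33.7% ± 21.0 (SD, n = 3) (exact permutation test, p = 0.9). In tested cow 1, bta-miR-195 held 16.7% of the family counts, against at most 0.528% in any other cow. The group means of its share were 0.164% ± 0.144 (SD, n = 3) and 5.73% ± 9.47 (SD, n = 3) (exact permutation test, p = 0.4).

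**Figure D2:**
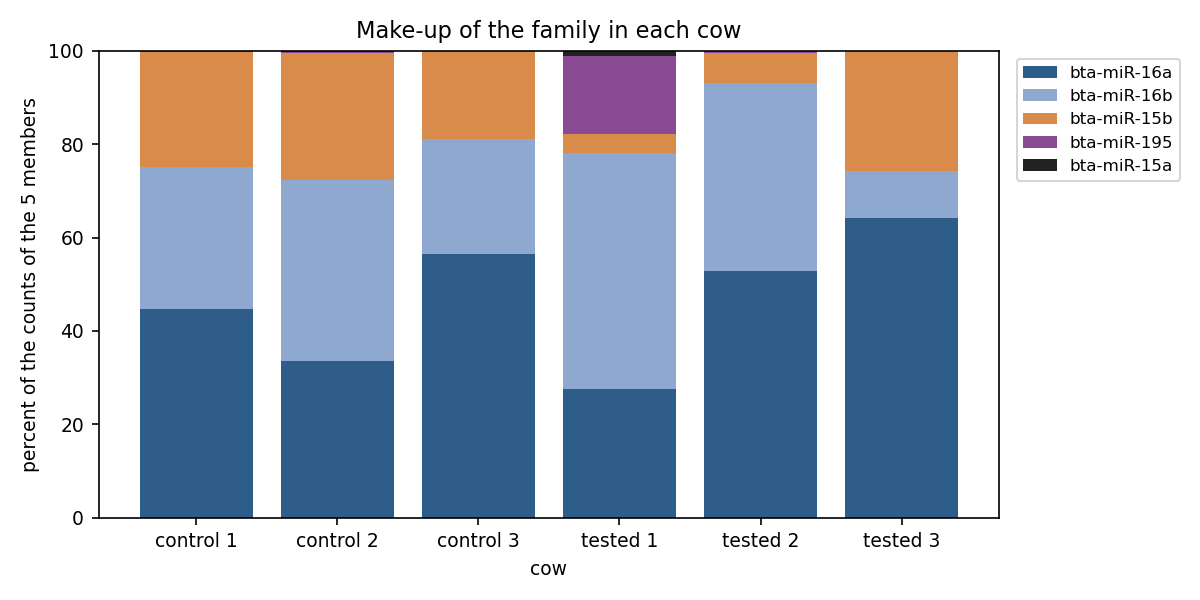
Share of the summed family counts held by each of the 5 measured members, in percent, as stacked bars, 1 bar per cow. The bar of tested cow 1 is the only one with a visible part of bta-miR-195 (16.7%), and bta-miR-15b is narrow in tested cows 1 and 2 (4.02% and 6.33%).

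The neighbours bta-miR-15b and bta-miR-16b come from 1 locus, so the ratio of their counts was taken in each cow. It was 0.816, 0.701 and 0.758 in control cows, against 0.0795, 0.157 and 2.53 in tested cows. The control cows lay within 1.16-fold of each other and the tested cows within 31.7-fold, with tested cow 3 above and the other tested cows below every control cow. These ratios carry the uncertainty of the bta-miR-16b row, whose reads cannot always be told from those of bta-miR-16a. In tested cow 3 that row held 40 counts, beside 252 of bta-miR-16a. The arithmetic means of the ratio did not differ beyond their spread (exact permutation test, p = 1). In such a mean the high ratio of tested cow 3 offsets the low ratios of the other tested cows, so equal ratios are not shown. Whether the spread of the ratio differs between the diets was not tested. Set against bta-miR-16a, from the other locus, bta-miR-15b gave ratios of 0.552, 0.808 and 0.333 in control cows, against 0.146, 0.120 and 0.401 in tested cows (exact permutation test, p = 0.2). The ratio of bta-miR-16b to bta-miR-16a was 0.677, 1.15 and 0.440 against 1.83, 0.765 and 0.159 (exact permutation test, p = 0.8). It was highest in tested cow 1 and lowest in tested cow 3, an 11.6-fold range within the tested group.

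Across all miRNAs, the groups were compared by the edgeR quasi-likelihood test, with TMM factors that correct library size after trimming off extreme miRNAs. The 623 miRNAs with at least 10 counts over the 6 libraries were tested, which included 4 of the 5 measured members and left out bta-miR-15a. A miRNA passed the threshold when its unadjusted p lay below 0.05 and its log2 fold change lay above 1 or below -1, where positive values mean higher levels in the tested group. None of the 4 members passed, by edgeR, DESeq2 or limma, and 0 of the 4 had an unadjusted edgeR p below 0.05, against 29 of the 623 (4.65%). Over all 623 miRNAs 20 passed (3.21%), and over the 312 known ones 3 (0.962%). After adjustment by the method of Benjamini and Hochberg, 1 of the 623 (0.161%) and none of the members stayed below 0.05. In ppm, all tested cows lay above or below all control cows for 25 of the 312 known miRNAs (8.01%) and for 0 of the 4 members. In RPM this was so for 18 of the 312 (5.77%) and for 1 of the 4 members, bta-miR-15b.

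The edgeR log2 fold change of bta-miR-15b was -1.34 (standard error 1.11, adjusted p = 0.681), with a 95% interval of -3.75 to 1.07. Without tested cow 1 it was -0.89 and without tested cow 3 it was -2.44, so its size depended on which tested cow was in the fit. For bta-miR-16a it was -0.24 (standard error 0.711, adjusted p = 0.979) with an interval of -1.78 to 1.29, and for bta-miR-16b -0.27 (standard error 0.843, adjusted p = 0.979) with an interval of -2.09 to 1.55. Both signs depended on a single cow, since bta-miR-16a was at 0.11 without tested cow 1 and bta-miR-16b at 0.18 without tested cow 3. The widest interval was that of bta-miR-195, at 4.20 (standard error 2.89, adjusted p = 0.587), which ran from -2.06 to 10.5. The intervals of all 4 members include 1 as well as -1, so equal levels under both diets are not shown either. Over the 4 members the median log2 fold change was -0.26, beside 0.071 over the 623 miRNAs. The 4 include bta-miR-195, which was in the fit only through its counts in tested cow 1.

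**Figure D3:**
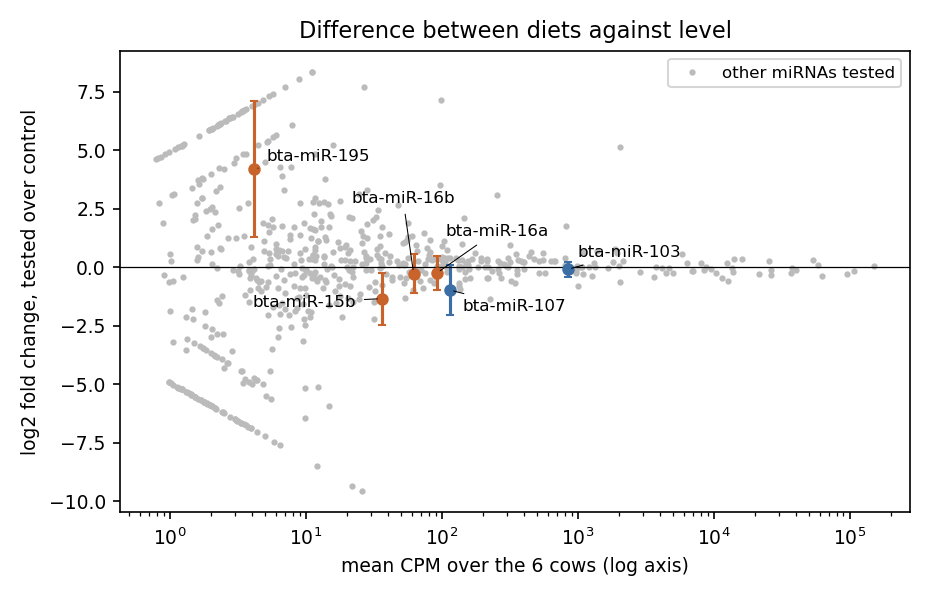
The log2 fold change (tested over control, edgeR) of the 623 miRNAs tested, against their mean CPM (counts scaled by TMM and library size) over the 6 cows on a log axis. Family members are in orange and bta-miR-103 and bta-miR-107 in blue, with bars for 1 standard error, and grey points are the other miRNAs. The abundant members lie between -1.34 and -0.24, and bta-miR-195 lies at 4.20 among the rarely counted miRNAs.

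The family is part of a wider group, often named after miR-15 and miR-107, whose members carry AGCAGC at base 1 or 2. Of the 359 known miRNAs, 7 (1.95%) do so in the listed strand. Beside the 5 family members these were bta-miR-103 and bta-miR-107, which are known for their effect on insulin sensitivity. MIR107 lies in the pantothenate kinase gene PANK1, and MIR103-1, the only gene copy of bta-miR-103 looked up here, in PANK3. They are shown because their seed, again in capitals, is the family seed moved by 1 base and because they are alike in the same way as bta-miR-16a and bta-miR-16b, with 21 identical leading bases.
bta-miR-103: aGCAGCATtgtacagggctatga
bta-miR-107: aGCAGCATtgtacagggctatc

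The level of bta-miR-103 was steady, from 793.5 to 960.1 ppm over the 6 cows, with means of 869.0 ± 79.1 (SD, n = 3) and 855.1 ± 54.1 (SD, n = 3) ppm in the control and tested groups (exact permutation test, p = 0.8). In contrast, bta-miR-107 had 373, 301 and 149 counts in control cows, against 1, 254 and 220 in tested cows, with the 1 count in tested cow 1. Its ratio to bta-miR-103 was 0.297, 0.181 and 0.0780 in control cows, against 9.11e-04, 0.154 and 0.133 in tested cows (exact permutation test, p = 0.4). The edgeR log2 fold changes were -0.085 (standard error 0.310, adjusted p = 0.979) for bta-miR-103 and -0.97 (standard error 1.07, adjusted p = 0.823) for bta-miR-107. Without tested cow 1 the latter was -0.39, without tested cow 2 it was -1.68 and with limma -2.29, and the sign of the former turned without control cow 3 (0.061) or tested cow 3 (0.035). Of the 6 miRNAs of the wider group that were tested, 0 passed the threshold, beside 20 of all 623 (3.21%) and 3 of the 312 known ones (0.962%). At such shares few or none of 6 would be likely to pass.

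**Figure D4:**
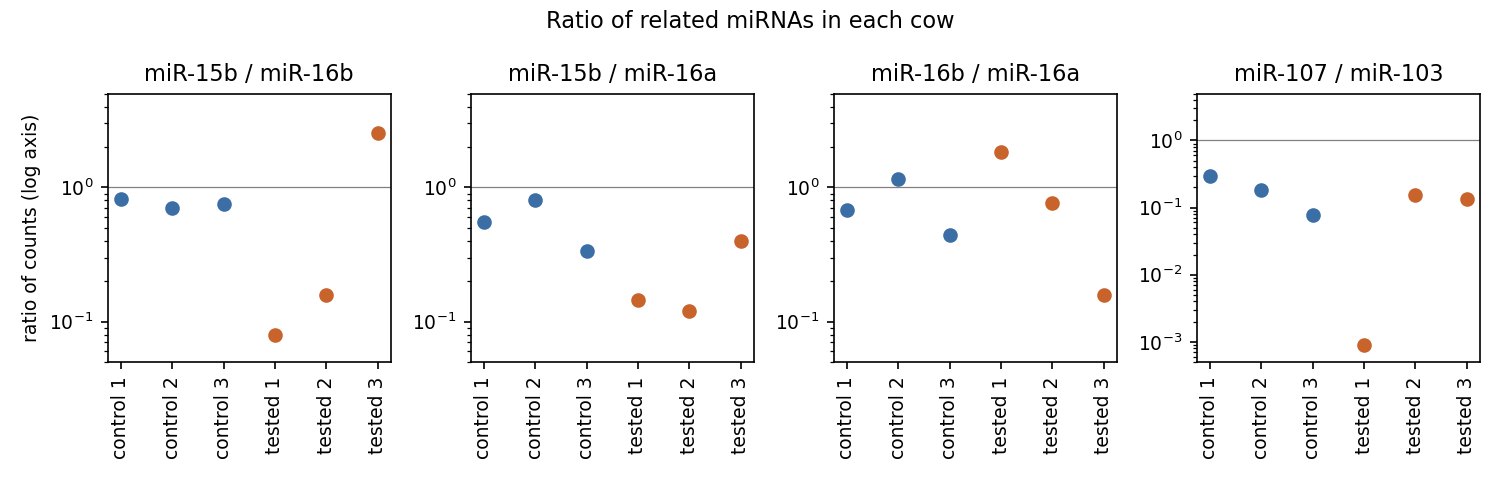
Ratio of the counts of related miRNAs in each cow, on log axes whose range is wider in the last panel. Blue points are control cows, orange points are tested cows, and the grey line marks a ratio of 1. The ratio of miR-15b to miR-16b keeps to 0.701 to 0.816 in the control cows and runs from 0.0795 to 2.53 in the tested cows, and that of miR-107 to miR-103 drops to 9.11e-04 in tested cow 1. The counts of miR-16a and miR-16b are uncertain individually, and so are the ratios that use them.

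Variation between cows was compared over the 180 known miRNAs with a mean of at least 10 CPM, as the standard deviation of log2(CPM + 1) over the 6 libraries, where CPM is scaled by TMM. The median was 0.58. The value was 0.67 for bta-miR-16a, 0.85 for bta-miR-16b and 1.30 for bta-miR-15b, and 83, 68 and 44 of the 180 were at least as variable. It was 0.19 for bta-miR-103 and 2.57 for bta-miR-107, the second most variable of the 180. The 180 were not matched for level. Mean CPM was 91.6 for bta-miR-16a, 61.9 for bta-miR-16b and 35.9 for bta-miR-15b, so it fell as this value rose, while bta-miR-107 had 113.8.

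Likeness of pattern was measured as the standard deviation, over the 6 libraries, of the difference in log2(CPM + 1) from a member, so that a low value means a steady ratio. Outside the wider group 175 known miRNAs were compared. Closest to bta-miR-16a were bta-miR-152 and bta-miR-3432a, each at 0.47, where the median of the 175 was 0.89. For bta-miR-16b they were bta-miR-29c at 0.51 and bta-miR-197 at 0.55 (median 0.99), and for bta-miR-15b bta-miR-1271 at 0.56 and bta-miR-1343-3p at 0.77 (median 1.46). Within the family the values were 1.02 between bta-miR-15b and bta-miR-16a, 1.19 between bta-miR-16a and bta-miR-16b and 1.72 between the neighbours bta-miR-15b and bta-miR-16b. The first of these lies below the median for bta-miR-15b and above that for bta-miR-16a, and the other values lie above the medians of both their miRNAs. Each of these values rests on 6 libraries and on counts that were low for the members.

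Tested cow 1, in which bta-miR-195 was highest and bta-miR-16a, bta-miR-15b and bta-miR-107 were lowest, also stood apart in miRNAs of red blood cells. The red blood cell miRNAs bta-miR-451, bta-miR-144 and bta-miR-486 summed to 59608 ppm in this cow and to between 8621 and 28434 ppm in the other 5. Of this list 3 of 3 were counted in every library and 0 of 3 passed the threshold. The 4 white blood cell miRNAs with a row, out of 5 listed, summed to 196.4 to 385.8 ppm in the control group and 123.5 to 439.3 in the tested group, and 0 of 4 passed. The 4 miRNAs of platelets and blood vessels summed to 17.1 to 108.0 and 79.8 to 322.8 ppm, and 1 of 4 passed, bta-miR-199a-3p. The 3 liver miRNAs, of which 0 passed, summed to 1068 to 1590 and 1130 to 2024 ppm. Over all known miRNAs tested, 3 of 312 passed (0.962%), and the lists are too short to be set against that share. Each of the 4 lists had its highest sum in tested cow 1, but single miRNAs differed, with 3 of 3 of the red blood cell list, 1 of 4 of the white blood cell list, 2 of 4 of platelets and blood vessels and 2 of 3 of liver highest there. The part of these cells in the levels of the family was not tested. Without tested cow 1, the number of members past the threshold was again 0.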

How the data were processed

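Small RNA of serum EVs from 6 cows was sequenced, 3 control and 3 tested. The authors trimmed and size-selected reads, filtered them, matched them to the bovine genome (ARS-UCD1.2), removed other RNA classes and took known miRNAs from miRBase. The submitters' processing notes also name cutadapt 1.14 and Bowtie. The counting tool is not given in the sources used here. The authors deposited counts, whole numbers without normalization, and RPM values, which equal the count divided by the clean reads of the library. Columns with the authors' fold changes and p-values, and their list of called miRNAs, were not used. The listed sequences and names are those of the deposited table.

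Here, edgeR 4.0.16 (R 4.3.3; TMM, estimateDisp, glmQLFit and glmQLFTest) was run on all miRNAs with at least 10 counts in total, with Benjamini-Hochberg adjustment. Levels were compared by two-sided exact permutation tests (SciPy 1.17.1). Standard errors are the log2 fold change divided by the root of the F statistic. The alternatives were DESeq2 1.42.0, limma 3.58.1 with a pseudocount of 1 CPM, RLE or no factors, no filter, filterByExpr, known miRNAs only, like sequences merged (contained in another or sharing the first 18 bases), a replicate block, other totals, and each library left out. Each tool was also run on simulated counts, with less variation between libraries than was estimated over the real data as a whole. No result given here rests on that run.

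Named were the members, the wider group, genes within 10 kb, the 2 miRNAs most like each member with at least 10 CPM, and 4 marker lists. The members and lists were chosen with earlier results of these data known. The sample names give no pairing of the cows by replicate number, and the fit reported used none.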

Additional observations from a re-analysis of the deposited data

How the results depend on the processing

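The number of family members past the threshold was 0 in the fit reported and under every alternative run, and so was that of the wider group. Leaving out each cow in turn moved the log2 fold change of bta-miR-16a between -0.52 and 0.11, that of bta-miR-16b between -0.68 and 0.18, that of bta-miR-103 between -0.17 and 0.061 and that of bta-miR-107 between -1.68 and -0.39. On the same scale, the ratio of the group mean levels moved between -0.47 and 0.18 for bta-miR-16a and between -0.61 and 0.14 for bta-miR-16b. In the share of the family counts, tested minus control, the range was -4.74 to 13.5 percentage points for bta-miR-16a and -5.99 to 14.2 for bta-miR-16b. For bta-miR-15b the range was -18.4 to -7.54 points, with a log2 ratio of mean levels from -2.52 to -0.79. The log2 ratio of the summed family levels was -0.33 with all cows, between -0.45 and -0.091 with a cow left out, and -0.67 when the authors' RPM values, scaled to clean reads, were used. The log2 fold change of bta-miR-15b stayed negative under every alternative run, from -2.44 to -0.89. That of bta-miR-195 ran from 1.45 to 4.78, but every fit that gave it a value held tested cow 1. Neither filterByExpr nor the fit without tested cow 1 gave one, and without this cow the log2 ratio of its mean levels was 0.48. In RPM the groups no longer overlapped for bta-miR-15b, where the log2 ratio was -1.74. Only the fit without a filter gave a value for bta-miR-15a.

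The 20 miRNAs that passed among all 623 became 34 with limma, 13 with filterByExpr and 12 with the replicate block. The known ones that passed, 3 in the fit reported, became 6 with DESeq2 or in a fit of known miRNAs only, 9 with limma and 1 with the block. Leaving out a cow gave between 2 and 6. Of the 20, 13 were higher in the tested group and 7 lower. With limma these numbers were 27 and 7, without control cow 1 they were 21 and 2, and without control cow 3 the majority turned, with 8 higher and 11 lower. The sample names give same-numbered cows no link beyond the number. Their deviations had correlations of -0.058, -0.048 and -0.019, and 0 of the 6 correlated best with its own number. Such correlations cannot exclude a factor that same-numbered cows shared. With the replicate block, bta-miR-15b was at -1.78, bta-miR-16a at -0.31, bta-miR-16b at -0.53 and bta-miR-195 at 2.69 on the log2 scale, and 0 members passed. Depth limits bta-miR-15a and bta-miR-195 most, which had 3 and 33 counts in all. The causes of these changes were not tested.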
